A study of Mus musculus with 9 samples.

Results

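The comparison sets 2 mouse myeloid leukaemias side by side: FrII cells of K/L leukaemic mice and FrII cells of Sox4 leukaemic mice. Members were chosen by the sample titles, which gave 3 K/L arrays and 3 Sox4 arrays, 6 of the 9 arrays of the series. The remaining 3 arrays came from wild type FrII cells and enter here to estimate the spread and to place each value. K/L mice carry mutations of both alleles of Cebpa, and the Sox4 leukaemic mice overexpress Sox4. All mice are labelled C57/BL6, blood as the tissue and an age of 2 to 4 months. FrII is the name in the labels for sorted cells that lacked lineage markers and Sca-1, carried c-Kit and had low or positive Mac1. The leukaemic samples were also sorted as negative for CD45.1 and positive for CD45.2, and the extract protocol lists that gate for all samples. Neither the means of Sox4 expression, nor the origin of the leukaemias, nor whether the 3 arrays of a group hold separate leukaemias is stated by the sources used here. The p-values therefore measure the spread between these arrays, which may be technical in part, and genotype and single leukaemia cannot be told apart.

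C/EBPα, the product of Cebpa, is a transcription factor that myeloid progenitors need to become granulocytes, and mutations of both copies of its gene are known from acute myeloid leukaemia. Sox4 is a transcription factor of the SOX family that is normally active in early and lymphoid progenitors and that drives myeloid leukaemia in mice when overexpressed. Normal myeloid progenitors give rise to neutrophils, monocytes, eosinophils and basophils, each with its own granule proteins and receptors, so genes of these lineages show which programme a leukaemic progenitor carries.

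Values are log2 intensities of 1 probe set per gene, and a difference is the K/L mean minus the Sox4 mean with the standard error of the limma fit (n = 3 arrays a group). Arrays are given in the order 1, 2, 3. Replicate arrays within each leukaemia correlated at Pearson r of 0.991 or more over the tested genes, with 18 to 69 genes over 2-fold apart. No 2 arrays of a group had the same value for a probe set above the lowest deposited value. Wild type array 3 stood apart from its group (r = 0.979 and 0.977). The Sox4 arrays differed in genes of the sex chromosomes: Xist, the RNA that silences an X chromosome in female cells, was at 12.10, 4.68 and 11.63 in Sox4 and at 4.60, 5.05 and 4.64 in K/L arrays. The Y-linked gene Kdm5d was at 4.14, 9.91 and 9.01 in Sox4 and at 9.83, 9.93 and 9.60 in K/L arrays, so Sox4 array 3 had signal of both genes and whether it holds 1 mouse was not tested. The ratio of 3' to 5' signal of the Gapdh control, which rises with RNA degradation, was 1.93 to 2 in K/L and 2.22 to 2.44 in Sox4 arrays. It moved with the groups in every comparison below, and its part in the results was not tested. The same ratio of the actin control overlapped, at 0.866 to 0.913 and 0.881 to 0.915.

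Of 12826 genes tested, 3702 (28.9 percent) differed at an adjusted p of 0.05, of which K/L cells had 1905 higher (14.9 percent) and 1797 lower (14 percent). At least 2-fold differences were counted in 1165 of them, 466 higher (3.63 percent) and 699 lower (5.45 percent). The large differences were mostly lower in K/L cells: of 60 genes past a log2 difference of 4, 47 were lower and 13 higher, and of 21 past 5, 18 were lower. With both groups above the 40th percentile of their arrays, 10840 genes were left and the 2-fold calls were balanced, at 315 higher and 328 lower. A further 522 of the 2-fold calls had a group with an array below that percentile, where the size of a difference rests on little signal. With genes of chromosomes 6 and 12 set aside, 3094 of 11721 genes (26.4 percent) passed, 1413 higher and 1681 lower, of which 1002 differed at least 2-fold (369 higher and 633 lower). The direction of the small differences depended on scaling: after median centring of the arrays 2546 genes passed as higher and 1456 as lower, and 1933 and 1349 with both chromosomes set aside. The arrays of the groups did not overlap in 51.1 percent of tested genes. With Sox4 array 2, which had no Xist signal, alone standing for the Sox4 group, assumed to vary like the other groups, 1508 genes passed, and 1235 with both chromosomes set aside, while 2-fold calls numbered 1016.

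**Figure D1:**
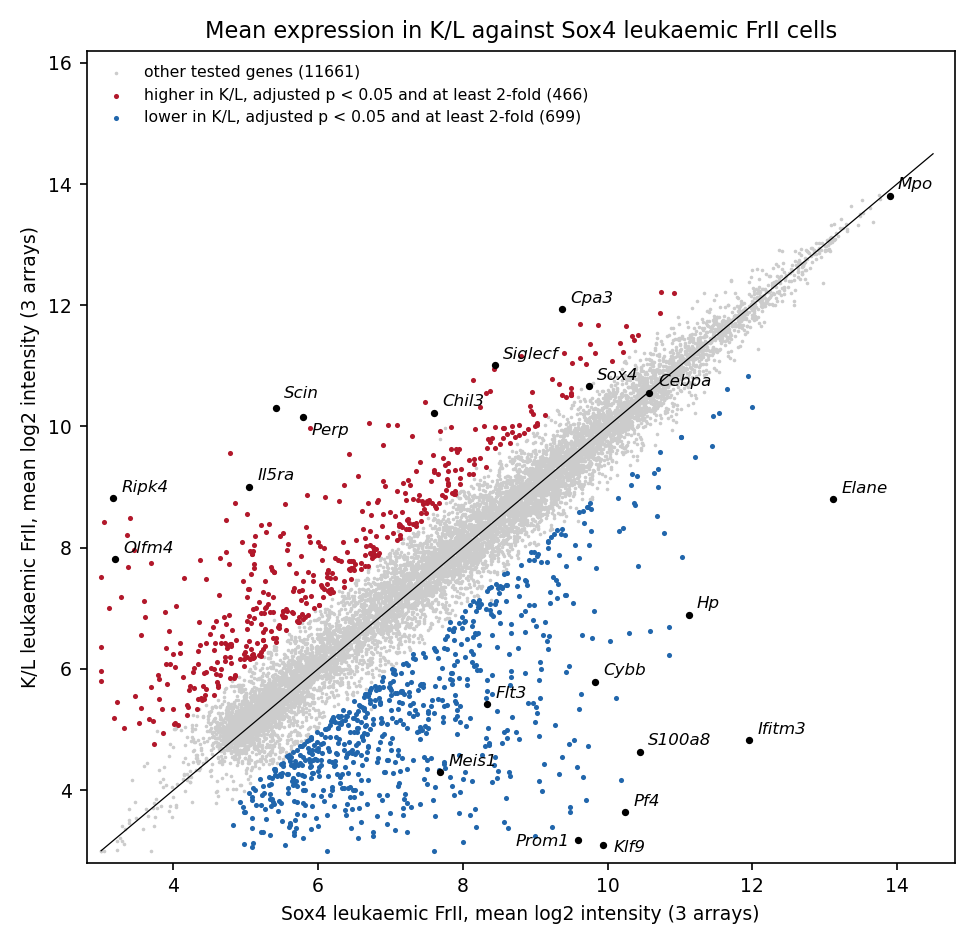
Mean log2 intensity of each tested gene in the 3 Sox4 arrays (horizontal axis) and the 3 K/L arrays (vertical axis), with genes past an adjusted p of 0.05 and 2-fold coloured and the line of equal means drawn. The 699 genes lower in K/L cells reach farther from the line than the 466 higher ones, and Mpo, Cebpa and Sox4 lie near it.

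The Sox4 signal was higher in K/L than in Sox4 cells, and no gene of the sort gate passed the test. Sox4 measured 10.87, 10.52 and 10.62 in K/L and 9.73, 9.61 and 9.87 in Sox4 arrays, against 3.84, 3.81 and 3.97 in wild type arrays. The groups did not overlap, and K/L cells were higher by 0.93 ± 0.12 (adjusted p = 0.000253), a 1.91-fold difference, in the direction opposite to the name of the Sox4 group. Of its 8 probe sets, 7 differed in the same direction, and 1 lay at the floor of the deposited values (log2 value of 3) in both groups. Its probe sets disagreed on wild type cells: the one used here and others at 6.12 against 3.73 and at 8.16 against 4.55 (Sox4 and wild type means) were lower in wild type, whereas 3 had wild type means of 7.82, 7.63 and 8.33 beside Sox4 means of 7.34, 7.67 and 7.45. The means of overexpression are not stated, and whether these probe sets detect all Sox4 transcript was not tested. Cebpa was at 10.47, 10.55 and 10.66 in K/L and at 10.64, 10.50 and 10.61 in Sox4 arrays, so the arrays overlapped (difference -0.02 ± 0.13, adjusted p = 0.933). A probe set for the transcript does not report on the mutations of Cebpa. Kit, which encodes the c-Kit receptor of the gate, differed by 0.03 ± 0.11, and Ptprc, which encodes CD45, by 0.06 ± 0.10, and neither passed the test. Itgam, which encodes a chain of Mac1, was below the filter on low values. Among the 5 tested genes of the gate 0 passed in limma, 0 at an unadjusted p of 0.05, and 0 when each array was left out, and the summed linear intensity of the list was 2440 to 2740 in K/L and 2400 to 2720 in Sox4 arrays. The SOX family list had 1 of 10 tested members higher and 2 lower, against 14.9 and 14 percent of all tested genes. Its median was 0.07, against 0.03 over all tested genes. The falls were those of Sox12, a SOX factor of the same subgroup as Sox4 (-2.92 ± 0.17), and Sox13 (-0.71 ± 0.15).

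Genes of neutrophil granules and of late neutrophils were lower in K/L cells, with exceptions in both lists. Of 17 tested late neutrophil genes 13 were lower and 3 higher, and Mmp9 did not pass (median -1.96). S100a8 and S100a9, which encode the 2 chains of calprotectin, an abundant calcium-binding protein of neutrophils, are neighbours on chromosome 3. S100a8 measured 4.70, 4.26 and 4.94 in K/L and 10.20, 10.67 and 10.48 in Sox4 arrays, a difference of -5.81 ± 0.19 (adjusted p = 2.47e-08). S100a9 measured 6.33, 5.53 and 6.86 against 10.83, 10.88 and 10.82 (-4.61 ± 0.28, adjusted p = 1.42e-06). For both genes all K/L arrays lay far below all Sox4 arrays, and wild type arrays were highest, at 12.53 to 12.85 for S100a8 and 13.14 to 13.65 for S100a9. Hp, which encodes haptoglobin, measured 6.95, 6.82 and 6.91 in K/L and 11.19, 11.12 and 11.05 in Sox4 arrays (-4.23 ± 0.09, adjusted p = 5.94e-09). The granule genes Wfdc21 (-4.72 ± 0.34), Ltf, which encodes lactoferrin (-2.41 ± 0.17), and Lcn2, which encodes lipocalin 2 (-2.42 ± 0.27), were lower as well. So were Ngp (-2.72 ± 0.46) and the cathelicidin gene Camp (-2.59 ± 0.40). In the opposite direction, Olfm4, which encodes a protein found in a subset of neutrophils, was at 7.68, 7.90 and 7.85 in K/L and at 3.00, 3.40 and 3.19 in Sox4 arrays (4.62 ± 0.12, adjusted p = 6.87e-09), where Sox4 cells were near the floor. Chil3, a chitinase-like gene of myeloid cells, was at 10.01, 10.76 and 9.93 against 7.75, 7.30 and 7.75 (2.63 ± 0.55, adjusted p = 0.00526). The peptidoglycan recognition gene Pglyrp1 was also higher (1.60 ± 0.19).

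The list of primary granule genes, which are expressed earlier in the lineage, was split by size of difference. Not all members of the list encode granule proteins. Of 15 tested members 0 were higher, 10 were lower and 5 did not pass (median -0.58). Elane, which encodes neutrophil elastase, measured 8.83, 9.03 and 8.55 in K/L and 13.13, 13.12 and 13.11 in Sox4 arrays (-4.32 ± 0.17, adjusted p = 9.99e-08), a 19.9-fold difference. Hdc, which encodes the enzyme that forms histamine, measured 5.57, 5.23 and 5.78 against 10.17, 10.04 and 10.15 (-4.59 ± 0.16, adjusted p = 4.26e-08), and the ficolin gene Fcnb was lower by -2.98 ± 0.19. The arrays were clearly apart for these list members, while the other main proteases of the primary granule and its peroxidase did not pass. Mpo, which encodes myeloperoxidase, was at 13.82, 13.84 and 13.77 against 13.91, 13.93 and 13.87 (-0.09 ± 0.09, adjusted p = 0.492). The cathepsin G gene Ctsg differed by -0.13 ± 0.08 (adjusted p = 0.288) and the proteinase 3 gene Prtn3 by -0.27 ± 0.11 (adjusted p = 0.0915). In bulk RNA, fewer cells of a type and less RNA per cell cannot be told apart. The summed linear intensity of the primary granule list was 43700 to 44800 in K/L and 63600 to 64300 in Sox4 arrays, and that of the late neutrophil list 4810 to 5500 and 9730 to 10400.

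Because C/EBP factors bind upstream of many granule genes, the 250 bases before the first listed start of S100a8, S100a9 and Elane are shown (RefSeq, GRCm38.p6). These are 3 members of the primary granule and late neutrophil lists with large falls, chosen with their matches known. Capitals mark matches on either strand to TTNNGNAA, a loose form of the C/EBP binding sequence. The search itself was made with the expression results known.

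S100a8, chr3:90668821-90669070, forward strand: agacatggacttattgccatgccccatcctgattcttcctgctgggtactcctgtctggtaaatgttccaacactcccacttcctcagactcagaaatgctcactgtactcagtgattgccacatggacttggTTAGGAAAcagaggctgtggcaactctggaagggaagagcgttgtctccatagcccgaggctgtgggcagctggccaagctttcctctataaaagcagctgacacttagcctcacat

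S100a9, chr3:90695722-90695971, reverse strand: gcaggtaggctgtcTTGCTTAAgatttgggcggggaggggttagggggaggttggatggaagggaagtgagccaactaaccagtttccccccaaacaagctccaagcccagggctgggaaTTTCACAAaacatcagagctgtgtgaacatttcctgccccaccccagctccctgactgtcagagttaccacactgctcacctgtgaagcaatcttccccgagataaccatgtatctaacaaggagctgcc

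Elane, chr10:79886062-79886311, forward strand: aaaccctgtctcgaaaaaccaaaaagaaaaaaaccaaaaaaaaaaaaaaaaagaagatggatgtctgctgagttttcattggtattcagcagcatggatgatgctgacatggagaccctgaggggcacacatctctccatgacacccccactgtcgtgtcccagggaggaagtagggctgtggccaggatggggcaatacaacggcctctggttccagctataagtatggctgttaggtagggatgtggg

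There was 1 match before S100a8, at -117 bases from the start, 2 before S100a9, at -236 and -130, and 0 before Elane. Among the other members of these lists, Igsf6 had 5 matches, Ngp had 3, and Ltf and Fcnb had 2, while Hdc, Camp and Mpo had 0. Chil3 and Olfm4, which were higher in K/L cells, had 3 and 1. A match was found in 10 of 14 late neutrophil genes with a promoter in the table (71.4 percent) and 7 of 15 primary granule genes (46.7 percent). Over all tested genes with a promoter the share was 28.2 percent, over all RefSeq promoters given 36.9 percent, over genes at least 2-fold higher in K/L cells 31.5 percent and over those at least 2-fold lower 30.1 percent. Also searched were AACAAT, a core sequence bound by SOX factors, and a motif of interferon regulatory factors, which is GAAA repeated after a gap of 2 bases of any kind. AACAAT was found in 5.38 percent of tested genes, 6.08 percent of those at least 2-fold higher and 7.52 percent of those lower, and the interferon motif in 2.55, 1.93 and 3.85 percent. The windows of AACAAT and TTNNGNAA were counted separately and may overlap, and a match is a description of these letters only.

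Monocyte genes were mostly lower in K/L cells. Of 17 tested members 9 were lower, 3 higher and 5 not past the test (median -0.76). Cybb, which encodes the catalytic subunit of the phagocyte oxidase, measured 6.03, 5.24 and 6.09 in K/L and 10.03, 9.59 and 9.87 in Sox4 arrays (-4.04 ± 0.43, adjusted p = 7.58e-05), with the same sign in 3 of 3 probe sets. Irf8, a transcription factor that directs progenitors to monocytes and dendritic cells, measured 8.02, 8.14 and 8.54 against 10.69, 10.80 and 10.86 (-2.55 ± 0.41, adjusted p = 0.00118). Csf1r, the receptor of macrophage colony-stimulating factor, measured 9.54, 9.39 and 9.56 against 11.30, 11.17 and 11.18 (-1.72 ± 0.10, adjusted p = 8.19e-07). All 3 genes lay apart between the leukaemias, and for Csf1r wild type arrays (9.50 to 9.66) were level with K/L. Klf4, a factor of monocyte development (-2.91 ± 0.30), and the chemokine receptor Ccr2 (-2.12 ± 0.16) were lower too. Adgre1, a surface antigen gene of macrophages, went the other way, at 7.82, 7.82 and 8.04 in K/L and 4.95, 5.18 and 5.11 in Sox4 arrays (2.81 ± 0.13, adjusted p = 2.82e-07). S100a4 (0.59 ± 0.11) and Cd68 (0.77 ± 0.20) were also higher, and Cd68 lost its call when any of 4 leukaemic arrays (Sox4 arrays 1 and 3, K/L arrays 1 and 3) was left out.

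Among 10 tested genes of dendritic cells and MHC class II, 3 were lower and 1 higher (median -0.28), against 14 and 14.9 percent of all tested genes. Tcf4, a regulator of plasmacytoid dendritic cells, was at 4.35, 4.42 and 4.88 in K/L and 9.52, 9.45 and 9.14 in Sox4 arrays (-4.82 ± 0.16), with all 6 probe sets lower. H2-Ab1, a chain of an antigen-presenting molecule (-1.71 ± 0.24), and H2-DMa, which helps to load it (-1.12 ± 0.11), were lower. The integrin gene Itgax, which encodes CD11c, was higher by 2.89 ± 0.20. The master regulator of this class, Ciita, was below the filter on low values. Of 20 fate factors of granulocytes and monocytes, 6 were lower and 4 higher (median -0.22), and with Sox4 array 2 alone 3 were lower and 1 higher. Egr2 was the largest rise (2.42 ± 0.14), from Sox4 arrays below the 40th percentile. Spi1, the master factor of myeloid cells (-0.05 ± 0.14), Gfi1, which represses monocyte genes (-0.18 ± 0.11), and Cebpb (-0.04 ± 0.23) did not pass.

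Stem cell and HoxA genes differed in single members by large factors. Of 10 tested HoxA and Meis/Pbx genes 5 were lower and 2 higher (median -0.56). Meis1, a homeobox cofactor of HoxA proteins, measured 4.28, 4.32 and 4.28 in K/L and 7.70, 7.54 and 7.81 in Sox4 arrays (-3.39 ± 0.13, adjusted p = 8.13e-08), with K/L arrays below the 40th percentile. Wild type arrays were below it too, so Meis1 entered the test through its Sox4 arrays alone and could only be lower. Hoxa3 (-2.10 ± 0.11), Hoxa9 (-1.87 ± 0.11) and Hoxa7 (-0.84 ± 0.15) were lower and lie on chromosome 6, whose called genes were mostly higher in K/L cells. The size of the Hoxa9 fall depended on the probe set: another had means of 3.9 in K/L and 9.25 in Sox4 cells (-5.34). Hoxa5 did not pass (-0.29 ± 0.15). Pbx2 and Meis3 were the rises (0.38 ± 0.12 and 0.42 ± 0.13), but Pbx2 lost its call when any of the 6 leukaemic arrays was left out, and Meis3 when any but Sox4 array 2 was. With Sox4 array 2 alone 3 members were lower and 0 higher, and with chromosomes 6 and 12 left out 5 members were tested, of which 2 were lower and 2 higher.

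Of 21 tested stem and early progenitor genes 11 were lower and 3 higher (median -0.59), and 7 lower and 2 higher with Sox4 array 2 alone. Prom1, which encodes the surface protein prominin, measured 3.26, 3.00 and 3.28 in K/L and 9.51, 9.73 and 9.52 in Sox4 arrays (-6.41 ± 0.17, adjusted p = 6.87e-09). The K/L arrays were at or near the floor, whereas wild type arrays were at 10.30 to 10.92. Cd27, a costimulatory receptor also found on progenitors, measured 6.49, 6.39 and 6.52 against 10.19, 9.72 and 10.22 (-3.57 ± 0.20, adjusted p = 9.71e-07), and wild type arrays were below both, at 3.95 to 4.72. Flt3, a receptor tyrosine kinase often mutated in leukaemia, measured 5.29, 5.19 and 5.77 against 8.45, 8.33 and 8.23 (-2.92 ± 0.20, adjusted p = 2.89e-06). All 3 genes were apart between the groups. The stem cell factor Tal1 (-2.59 ± 0.17) and the angiopoietin receptor Tek (-2.58 ± 0.18) were lower. Tek entered the test through its Sox4 arrays alone, so it could only be lower. Cd34, a surface marker of progenitors, was higher in K/L cells, at 11.70, 11.68 and 11.71 against 11.02, 10.98 and 10.98 (0.70 ± 0.09, adjusted p = 0.000233), and so was Thy1 (1.15 ± 0.15).

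Platelet and red cell genes were mostly higher in Sox4 cells. Of 18 tested megakaryocyte and platelet genes 1 was higher and 12 were lower (median -1.02). Pf4, the platelet chemokine gene, measured 3.62, 3.60 and 3.70 in K/L and 9.82, 10.61 and 10.31 in Sox4 arrays (-6.61 ± 0.19, adjusted p = 1.13e-08). The K/L arrays lay in the range of wild type arrays, 3.34 to 3.81, and below the 40th percentile. Pf4, Cavin2 and Rab27b entered the test through their Sox4 arrays alone, so they could only be lower. The count and median of the list include them. Cavin2 (-4.79 ± 0.23), Vwf, which encodes von Willebrand factor (-3.48 ± 0.33), and the small GTPase gene Rab27b (-2.37 ± 0.20) were lower too. Itgb3, a chain of the fibrinogen receptor, was the exception, at 11.06, 10.86 and 11.16 against 9.54, 9.88 and 9.68 (1.33 ± 0.12, adjusted p = 2.73e-05). With the stricter filter, and with chromosomes 6 and 12 left out, 7 were lower and 1 higher.

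Of 15 tested erythroid genes 8 were lower and 3 higher (median -0.55). Car1, a carbonic anhydrase gene of red cells, measured 3.93, 4.23 and 4.39 in K/L and 7.83, 8.20 and 7.99 in Sox4 arrays (-3.83 ± 0.15, adjusted p = 8.77e-08). Its relative Car2 (-3.48 ± 0.21) and the water channel gene Aqp1 (-2.55 ± 0.09) were lower. Car1 and Aqp1 entered the test through their Sox4 arrays alone, so they could only be lower. The red cell and platelet factor Gata1 was at 5.40, 5.37 and 5.59 against 7.12, 7.08 and 7.16 (-1.66 ± 0.16), and its target Klf1 was lower by -1.15 ± 0.15. The globin gene Hba-a1 differed by 0.09 ± 0.16 and did not pass, and Alas2, Epor and Slc4a1 were below the filter. The rises were Nfe2 (0.86 ± 0.11), Rhd (0.74 ± 0.11) and Zfpm1 (0.44 ± 0.11), the last of which lost its call without Sox4 array 2 (0.37, adjusted p = 0.0547).

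Genes of mast cells, basophils and eosinophils were divided within each list. Of 7 tested mast cell and basophil genes 3 were higher and 3 lower (median 0.06). With chromosomes 6 and 12 set aside there were 3 higher and 2 lower (median 0.65). Cpa3, a carboxypeptidase of mast cell granules, was among the brightest, at 11.94, 11.83 and 12.03 in K/L and 8.99, 9.75 and 9.38 in Sox4 arrays (2.56 ± 0.55, adjusted p = 0.0065). Wild type array 3, whose spread enters the same fit, was at 6.83 against 9.21 and 9.36 in the other wild type arrays, and the call was lost with Sox4 array 2 alone. Mcpt8, a basophil protease gene (1.24 ± 0.18), and Cyp11a1, which encodes a steroid-forming enzyme (3.15 ± 0.18), were higher. Ms4a2, which encodes a chain of the IgE receptor, was at 5.30, 4.71 and 4.89 in K/L and 8.56, 8.85 and 8.28 in Sox4 arrays (-3.60 ± 0.20, adjusted p = 8.73e-07). Hdc, counted above with the primary granule list, encodes the histamine-forming enzyme and was lower as well (-4.59 ± 0.16). The defining receptor gene Fcer1a and the tryptase genes Tpsb2 and Tpsab1 were below the filter. The summed intensity of the list was 5120 to 5840 in K/L arrays, 1810 to 2280 in Sox4 arrays and 1150 to 1440 in wild type.

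The 5 tested eosinophil genes all passed, 3 higher and 2 lower (median 2.57). With chromosomes 6 and 12 set aside, which leaves out Il5ra, 2 were higher and 2 lower (median 0.18). Il5ra, the receptor chain for the eosinophil growth factor interleukin 5, measured 8.98, 8.96 and 9.07 in K/L and 4.76, 5.28 and 5.09 in Sox4 arrays (3.96 ± 0.23, adjusted p = 1e-06), with wild type arrays between, at 6.28 to 7.22. Siglecf, a surface lectin of eosinophils, measured 11, 10.88 and 11.16 against 8.32, 8.57 and 8.45 (2.57 ± 0.19, adjusted p = 6.6e-06). Its wild type arrays, at 10.14 to 10.90, overlapped the K/L arrays. Prg3, a granule protein gene, measured 10.45, 10.64 and 10.12 against 7.65, 7.34 and 7.44 (2.93 ± 0.44, adjusted p = 0.000722). The K/L and Sox4 arrays did not overlap for any of these 3 genes. In the other direction, the eosinophil peroxidase gene Epx was at 4.31, 4.35 and 4.82 in K/L and 7.24, 7.45 and 7.24 in Sox4 arrays (-2.81 ± 0.16), and the major basic protein gene Prg2 at 7.35, 7.31 and 6.98 against 9.10, 9.73 and 9.44 (-2.21 ± 0.25). Prg2 and Prg3, close relatives, thus differed in opposite directions. Epx entered the test through its Sox4 arrays alone, so it could only be lower. Ccr3, the eotaxin receptor gene, was below the filter. The leukotriene receptor gene Cysltr1 was higher in K/L cells (2.21 ± 0.18), as was the lipoxygenase gene Alox15 (1.41 ± 0.18), among 8 tested leukotriene genes of which 2 were higher and 2 lower. With each array left out the leukotriene list had 2 to 6 calls, and without Sox4 array 1 or K/L array 3 there were 2 higher and 0 lower.

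**Figure D2:**
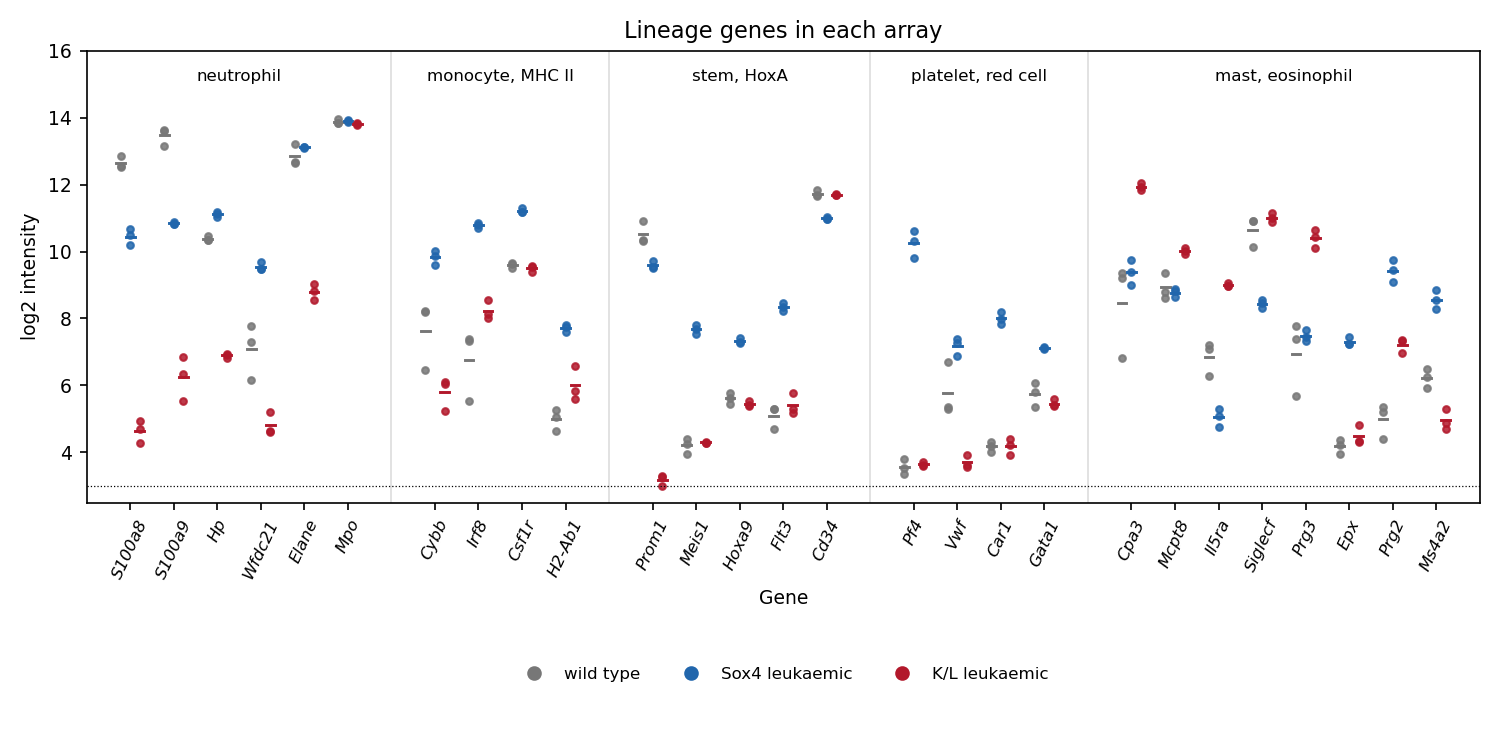
Log2 intensity of lineage genes in each of the 9 arrays (points), with a bar at the mean of 3 arrays and a dotted line at the floor of 3. Sox4 arrays are higher than K/L arrays for the neutrophil genes, narrowly for Mpo, which did not pass the test, and for the platelet genes. Cpa3, Mcpt8, Il5ra and Prg3 are highest in K/L arrays, and Epx, Prg2 and Ms4a2 in Sox4 arrays. Siglecf is lowest in Sox4 arrays, while its K/L and wild type arrays overlap.

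The lymphoid lists had few tested members. Of 10 tested B lymphoid genes 4 were higher and 2 lower (median 0.09). Mzb1, an endoplasmic reticulum protein of B cells and plasma cells, was at 8.13, 7.80 and 7.95 in K/L and 3.42, 3.43 and 3.50 in Sox4 arrays (4.51 ± 0.14, adjusted p = 1.57e-08). Mzb1 entered the test through its K/L arrays alone, so it could only be higher. Cd72 (2.93 ± 0.30), the B cell receptor gene Cd79a (1.73 ± 0.21) and Vpreb1 (1.18 ± 0.19) were higher. The B cell factor Pax5 differed by -0.05 ± 0.16 and did not pass, and Ebf1, Ms4a1, Blk and Rag1 were below the filter. The summed intensity of the list was 2070 to 2300 in K/L and 809 to 1010 in Sox4 arrays. Of 7 tested T and NK genes Thy1 alone passed, higher in K/L cells, whereas 28.9 percent of all tested genes passed. The sums of this list overlapped, at 712 to 960 in K/L and 869 to 931 in Sox4 arrays. Outside the list, the NK receptor genes Klrb1b (3.73 ± 0.20) and Klra5 (3.36 ± 0.09), both on chromosome 6, were higher in K/L cells. Klra5 was at the floor in all Sox4 and wild type arrays, so it entered the test through K/L arrays alone. Among 7 stromal and endothelial genes the adhesion gene Pecam1 was higher (2.22 ± 0.14) and Vcam1 lower (-1.24 ± 0.20), a share near the 28.9 percent of all tested genes. Col1a2, Col3a1 and Cdh5 were below the filter. Of 8 epithelial genes 4 were higher and 1 lower, and 2 were higher with Sox4 array 2 alone. The kinase gene Ripk4 was at 8.87, 8.88 and 8.71 in K/L and 3.27, 3.00 and 3.23 in Sox4 arrays (5.65 ± 0.16, adjusted p = 8.83e-09), the largest measured rise, with Sox4 arrays at or near the floor, while Epcam and Krt19 did not pass.

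Growth factor and cytokine receptors were lower more often than higher in K/L cells, with 7 lower and 3 higher of 20 tested (median -0.30). The share higher was near the 14.9 percent of all tested genes, of which 14 percent were lower. Besides Csf1r and Flt3, the interleukin 6 signalling chain gene Il6st was at 5.13, 5.11 and 4.97 in K/L and 9.25, 9.25 and 9.32 in Sox4 arrays (-4.21 ± 0.28, adjusted p = 2.93e-06), with all 4 probe sets lower. Il1r1, the interleukin 1 receptor gene, was lower (-2.16 ± 0.10, with the other of its 2 probe sets at the floor), while its decoy Il1r2 was higher (1.44 ± 0.19). Of 16 tested genes of the Toll-like receptor pathway 4 were lower and 2 higher (median 0.01), against 14 and 14.9 percent of all tested genes. The falls included the receptor genes Tlr4, which senses endotoxin (-2.70 ± 0.14), Tlr1 (-1.63 ± 0.17) and Tlr2 (-1.13 ± 0.12). For Tlr4 3 of 4 probe sets had the same sign, and the remaining one lay near the floor in all groups. Tlr7, a sensor of RNA, was higher (0.69 ± 0.13).

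Interferon-inducible genes were lower or did not pass. The p200 and Ifitm list had 5 of 8 tested members lower and 0 higher (median -1.53), 4 lower with chromosomes 6 and 12 set aside and 3 lower with Sox4 array 2 alone. Among the calls that depended on the setting was that of Ifi209 (-1.28 ± 0.43, adjusted p = 0.0493), which was lost with both chromosomes set aside (adjusted p = 0.0528) and without any of the 6 leukaemic arrays or wild type array 2. Ifitm3, which encodes a membrane protein that blocks virus entry, was at 4.67, 4.72 and 5.09 in K/L and 12.15, 11.62 and 12.10 in Sox4 arrays (-7.13 ± 0.45, adjusted p = 1.74e-06). With 1 of 3 K/L arrays above the 40th percentile, the size of this difference rests on little signal in K/L cells. Its neighbours on chromosome 7, Ifitm1 (-5.00 ± 0.37) and Ifitm2 (-1.78 ± 0.13), were lower, and the p200 members Mndal (0.14 ± 0.14) and Ifi203 (0.29 ± 0.17) did not pass. Of 17 tested interferon-stimulated genes 6 were lower and 0 higher (median -0.33), and with Sox4 array 2 alone 2 were lower and 1 higher. Ifit2 was the clearest, at 6.25, 5.69 and 5.98 against 8.45, 8.12 and 8.03 (-2.23 ± 0.18, adjusted p = 1.06e-05). Irf7 and Rsad2 did not pass (0.18 ± 0.13 and -0.16 ± 0.29).

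Among 14 tested Krüppel-like factors 6 were lower and 2 higher (median -0.03), against 14 and 14.9 percent of all tested genes. Klf9 was at 3.26, 3.00 and 3.00 in K/L and 10.15, 9.74 and 9.94 in Sox4 arrays (-6.85 ± 0.18, adjusted p = 6.87e-09). With 2 of the 3 K/L arrays at the floor, the deposited values bound this difference only from below, and 6 of 7 probe sets had the same sign. Klf2, a factor of quiescent leukocytes, was lower (-1.89 ± 0.24) and Klf7 higher (1.07 ± 0.17).

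Chromatin regulators had 4 of 21 tested members higher and 4 lower (median 0.06), near the 14.9 and 14 percent of all tested genes. Tet1, which encodes an enzyme that oxidises methylated cytosine, was at 3.45, 3.21 and 3.25 in K/L and 7.23, 7.18 and 7.26 in Sox4 arrays (-3.92 ± 0.16, adjusted p = 1.17e-07), with 4 of 4 probe sets lower and wild type arrays at 8.28 to 8.91. The DNA methyltransferase gene Dnmt3a, on chromosome 12, was higher (1.14 ± 0.14, 5 of 5 probe sets), and the Polycomb genes Bmi1 (0.75 ± 0.09) and Ezh2, on chromosome 6 (0.49 ± 0.09), were higher. Kcnq1ot1, a long RNA that silences its imprinted neighbours, measured 3.83, 3.77 and 3.89 in K/L and 9.56, 9.89 and 9.68 in Sox4 arrays (-5.88 ± 0.13, adjusted p = 6.06e-09), with 6 of 6 probe sets lower and wild type arrays level with Sox4. Cdkn1c, a gene of the same imprinted cluster, differed by 0.02 ± 0.24 and did not pass.

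Mitosis genes were lower in K/L cells by small amounts. Of 24 tested members 18 were lower and 0 higher (median -0.39), and none differed 2-fold. Nusap1, a spindle protein gene, was at 9.13, 9.03 and 8.99 in K/L and 9.62, 9.67 and 9.73 in Sox4 arrays (-0.62 ± 0.09), Kif11, a spindle motor gene, was lower by -0.54 ± 0.08, and the proliferation marker Mki67 by -0.50 ± 0.16, a call lost without any of the 6 leukaemic arrays. The count moved with the settings: it was 11 with median centring, 9 without Sox4 array 2, without K/L array 1 or without K/L array 3, and 2 with Sox4 array 2 alone. The summed intensity was 22800 to 24500 in K/L and 30000 to 31500 in Sox4 arrays, without overlap. DNA replication genes had 3 of 27 lower and 0 higher (median -0.19), fewer than the 14 percent of all tested genes that were lower, with 1 lower with Sox4 array 2 alone and 8 calls without wild type array 3. Among cell cycle regulators the D cyclin genes Ccnd3 (-1.31 ± 0.14) and Ccnd1 (-1.19 ± 0.13) and the inhibitor gene Cdkn2c (-1.0 ± 0.15) were lower. The probe sets of Ccnd3 disagreed: a dimmer one was higher in K/L cells (means of 5.49 and 4.29, difference 1.19). Myc and ribosome biogenesis genes had 1 higher and 1 lower of 22 (median -0.02), and 0 calls without Sox4 array 1 or 3 or K/L array 2 or 3, and Myc itself differed by 0.15 ± 0.12 and did not pass.

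Of 17 tested p53 targets 6 were higher and 2 lower (median 0), and without K/L array 1 there were 4 and 1. Over all tested genes the shares were 14.9 percent higher and 14 percent lower. Perp, which encodes a membrane protein of cell junctions and cell death, was at 10.11, 10.24 and 10.14 in K/L and 5.94, 5.90 and 5.53 in Sox4 arrays (4.37 ± 0.23, adjusted p = 6.07e-07). Pmaip1, which encodes the death inducer NOXA, was at 8.04, 8.17 and 7.95 against 5.72, 5.57 and 5.45 (2.47 ± 0.13, adjusted p = 5.64e-07), and Trp53inp1 was higher (1.94 ± 0.13). The arrays were apart for each, and K/L arrays were near wild type for Perp. The falls were those of Sesn1 (-0.69) and Tigar (-0.48), and Tigar lost its call without Sox4 array 1, K/L array 1 or K/L array 3. Dram1, a p53 target outside the list, was at 7.74, 7.69 and 7.67 in K/L and 10.35, 10.37 and 10.53 in Sox4 arrays (-2.72). The core targets Mdm2 (-0.01 ± 0.11) and Ccng1 (0.22 ± 0.11) did not pass, and Cdkn1a, higher by 0.80 ± 0.23, lost its call when any of 5 leukaemic arrays was left out. In the BCL2 family 5 of 13 were higher and 2 lower (median 0.03), and 2 and 2 without Sox4 array 2 or with it alone. The survival gene Bcl2 was at 10.27, 10.28 and 10.14 in K/L and 11.60, 11.47 and 11.57 in Sox4 arrays (-1.32 ± 0.14, adjusted p = 7.85e-05), with 5 of 5 probe sets lower, while Mcl1 (-0.01 ± 0.12) did not pass.

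Chaperones and enzymes of the secretory pathway were modestly lower: 8 of 19 were lower and 2 higher (median -0.28), with 0 past 2-fold and 3 lower with Sox4 array 2 alone. Sdf2l1 (-0.76 ± 0.09), Creld2 (-0.79 ± 0.13) and Hspa5, the main chaperone of the endoplasmic reticulum (-0.38 ± 0.09), were lower. Glycolysis genes had 4 higher and 1 lower of 16 (median 0.14), a share called near the 28.9 percent of all tested genes. With chromosomes 6 and 12 left out there were 3 and 0 of 12, without K/L array 3 there were 2 and 1, and without wild type array 3 there were 5 and 3. The exception was the glucose transporter gene Slc2a3, on chromosome 6, at 5.02, 4.72 and 4.57 in K/L and 8.44, 8.64 and 8.53 in Sox4 arrays (-3.77 ± 0.15, adjusted p = 1.01e-07). The related transporter Slc2a1 was higher by 0.56 ± 0.17, a call lost without any of 5 leukaemic arrays. Cholesterol synthesis genes had 3 of 19 lower and 0 higher (median -0.17), near the 14 percent of all tested genes that were lower, with 7 lower without Sox4 array 2, 1 without Sox4 array 3 and 0 with Sox4 array 2 alone. Of 16 lysosomal cathepsins and cystatins 5 were higher and 4 lower (median -0.12), against 14.9 and 14 percent of all tested genes. With each array left out this list had 7 to 12 calls.

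Adhesion and chemotaxis receptors differed in both directions, with 5 higher and 7 lower of 19 tested (median -0.05), against 14.9 and 14 percent of all tested genes. The chemokine receptor gene Ccr1 was at 6.90, 6.62 and 7.06 in K/L and 3.60, 3.42 and 3.82 in Sox4 arrays (3.25 ± 0.15, adjusted p = 2.07e-07). The integrin gene Itgb7, which guides leukocytes to the gut, was at 10.68, 10.72 and 10.92 against 8.02, 8.17 and 8.21 (2.64 ± 0.15, adjusted p = 1.07e-06), and its partner Itga4 was higher (0.65 ± 0.12). Besides Ccr2, the receptor genes Cx3cr1 (-1.65 ± 0.20) and Cxcr2 (-1.96 ± 0.40), the integrin gene Itgal (-1.51 ± 0.30) and the selectin ligand gene Selplg (-1.06 ± 0.25) were lower. Cxcr4, the receptor that holds progenitors in marrow, differed by 0.24 ± 0.08 and did not pass.

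**Figure D3:**
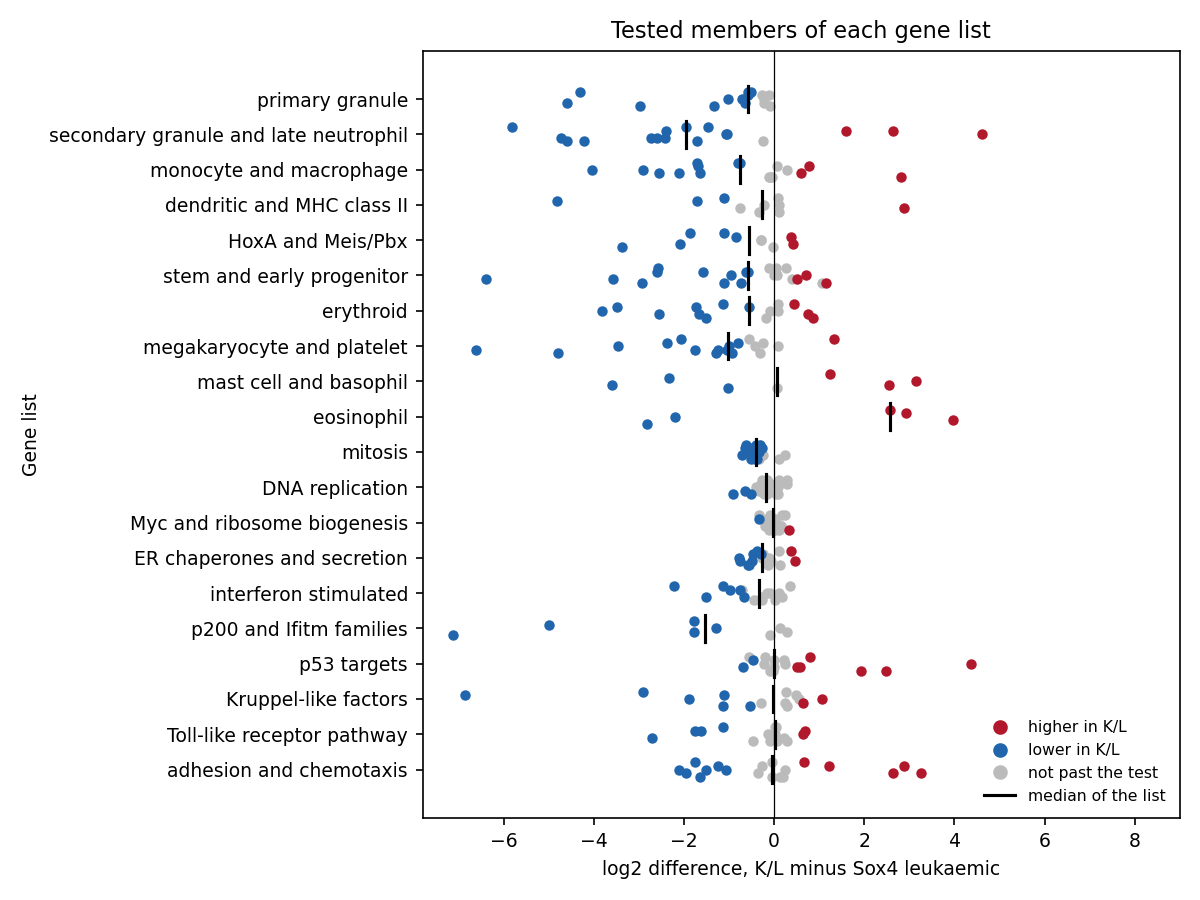
Log2 difference, K/L minus Sox4, of each tested member (points) of 20 gene lists, coloured by call at an adjusted p of 0.05, with a bar at the median of each list. Late neutrophil genes have the lowest median (-1.96), mitosis genes are shifted narrowly (median -0.39), and mast cell and eosinophil genes lie on both sides of 0.

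Outside the lists, the largest rises after Ripk4 included Islr, at 8.41, 8.27 and 8.81 in K/L and 3.11, 3.59 and 3.52 in Sox4 arrays (5.09 ± 0.17), and Scin, an actin-severing gene on chromosome 12, at 10.29, 10.15 and 10.46 against 5.26, 5.34 and 5.65 (4.88 ± 0.13). A second actin-severing gene, Gsn, was higher by 2.11 ± 0.11 in 6 of 6 probe sets. The fatty acid receptor gene Ffar2 (2.21 ± 0.10) and the muscle calpain gene Capn3 (2.98 ± 0.13) were among the smallest p of genes bright in both groups. The falls included 3 metabolic enzymes. Got1, an aspartate aminotransferase, was at 4.11, 4.35 and 4.21 in K/L and 9.75, 9.51 and 9.70 in Sox4 arrays (-5.43 ± 0.13, adjusted p = 6.06e-09). Glul, glutamine synthetase, was at 6.71, 6.31 and 6.83 against 10.66, 10.44 and 10.66 (-3.97 ± 0.16), and the lactate dehydrogenase gene Ldhb at 6.73, 6.47 and 6.58 against 10.16, 10.34 and 10.38 (-3.70 ± 0.13). For these 3 genes wild type means were 9.99, 11.02 and 12.17, so that Sox4 cells were nearer to wild type. Further falls were those of Smo, the Hedgehog signal transducer (-5.11 ± 0.25), F2r, the thrombin receptor gene (-5.10 ± 0.21), and App, the amyloid precursor gene (-5.76 ± 0.25). For App 2 of 4 probe sets were lower, and the others lay at or near the floor in all groups.

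Chromosomes 6 and 12 stood apart from the other autosomes and X. Of 643 tested genes of chromosome 6, K/L cells had 265 higher and 63 lower (median 0.29), and of 462 of chromosome 12, 191 were higher and 22 lower (median 0.30), while the medians of the other autosomes and X lay between -0.05 and 0.06. Chromosome Y had 5 tested genes, with a median of 1.41 and 0 calls, and is left out of these ranges. Against the wild type mean, the median over genes of chromosome 6 was 0.294, 0.302 and 0.287 in the K/L arrays and 0, 0.004 and -0.002 in the Sox4 arrays. That of chromosome 12 was 0.282, 0.275 and 0.275 in K/L and 0.011, 0.014 and -0.026 in Sox4 arrays, and over the other autosomes and X the group means were 0.042 and 0.041. The groups did not overlap on either chromosome, and the two-sided exact permutation test gave p = 0.1 for each, the smallest that 3 against 3 arrays allow. The shift ran along both chromosomes: in 4 equal blocks by gene order the median was 0.252 to 0.348 on chromosome 6 and 0.251 to 0.39 on chromosome 12. Of the calls under 2-fold on these 2 chromosomes, 359 were higher and 20 lower, against 1080 and 1078 on the other chromosomes. Calls of at least 2-fold there also leaned to higher, with 97 of 1105 genes higher (8.78 percent) and 65 lower (5.88 percent). With both chromosomes set aside these shares were 3.15 and 5.4 percent. Single genes differed by far more than the chromosome medians, such as Il5ra and the nuclear receptor gene Pparg (2.94 ± 0.22) on chromosome 6. Against the shift, Smo, Cd27, Slc2a3, Ldhb and the maltase gene Mgam (-4.16 ± 0.21) on chromosome 6 and the synaptic scaffold gene Gphn (-4.72 ± 0.20) on chromosome 12 were lower. Setting both chromosomes aside before the adjustment lost 67 calls and gained 0 among the remaining genes.

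**Figure D4:**
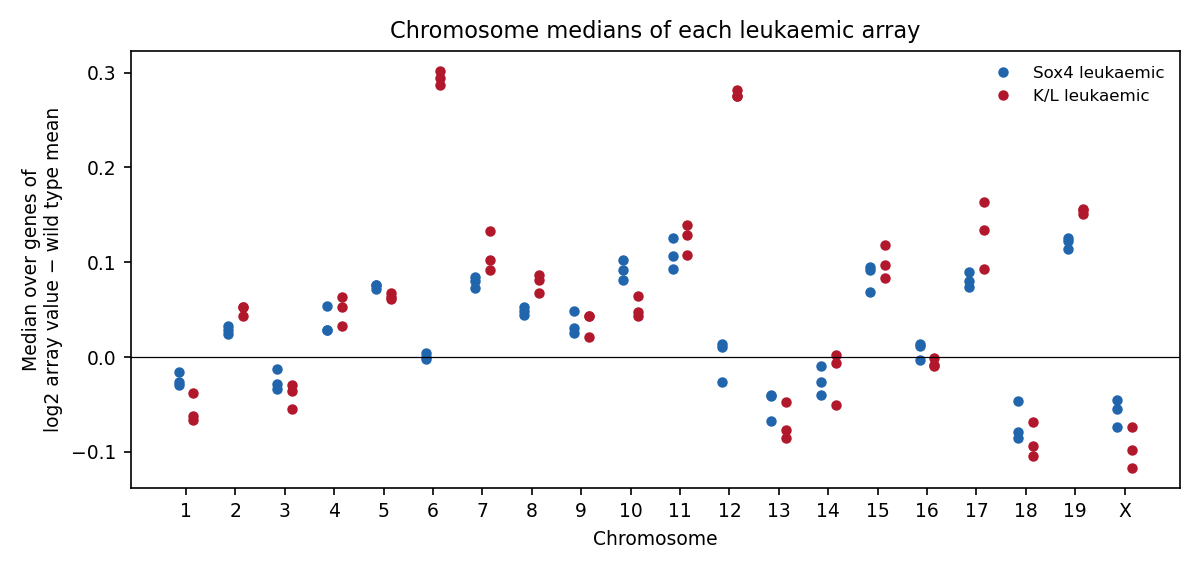
Median over the tested genes of each chromosome of the log2 value of an array minus the wild type mean, for the 3 Sox4 and 3 K/L arrays. On chromosomes 6 and 12 the K/L arrays lie between 0.275 and 0.302 and the Sox4 arrays between -0.026 and 0.014.

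The genes were also placed by the wild type mean. Of the 466 genes at least 2-fold higher in K/L cells, the wild type mean lay between the leukaemias in 252, above both in 98 and below both in 116, and it was nearer to the K/L mean in 44.6 percent. Of the 699 lower ones it lay between in 339, above both in 196 and below both in 164, and was nearer to the K/L mean in 51.5 percent, against 47.6 percent of all tested genes. Pf4, Meis1 and Car1 were near wild type in K/L cells and high in Sox4 cells, whereas Prom1 and Kcnq1ot1 were near wild type in Sox4 cells and near the floor in K/L cells. For Ccr1, Mzb1 and Scin the Sox4 means were within a log2 value of 1 of the wild type means and the K/L means were far above both.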

How the data were processed

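Total RNA was extracted with Trizol from sorted cells and labelled as biotinylated cRNA from 5 ug for Affymetrix mouse arrays, per the labels' protocols. The deposited intensity values, 1 per probe set and array, are linear and bounded below at 8. Per the submitters' processing notes the tool was RMA, whose version and later scaling the sources used here do not state. Median intensity per array was 43.07 to 46.79, and precision is limited by the number of arrays.

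Values were log2 transformed and kept at the deposited scaling. Probe sets with exactly 1 symbol in the platform annotation (34958 of 45101) gave 18194 genes, each by its probe set of highest mean over 9 arrays (_x_at as the last resort). Testing required at least 3 arrays above the 40th percentile of their values. A gene bright in a single leukaemia could thus enter, and its direction was then set by the filter. Counts and medians of the lists include such genes. limma 3.58.1 in R 4.3.3 (lmFit and eBayes) fitted 3 group means to all 9 arrays, and K/L minus Sox4 p-values of all 12826 genes received Benjamini-Hochberg adjustment, with 0.05 as threshold. The procedure was tested on simulated data.

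The members, the 42 gene lists (691 genes, 632 on the array with 1 symbol) and the tests were chosen with earlier results of these data known, so the lists are described by counts and medians without tests. Every list count is to be read beside the shares of all tested genes, 14.9 percent higher and 14 percent lower. Genes named are the 15 largest differences each way among calls without overlap, the same with chromosomes 6 and 12 set aside, 5 each way on both chromosomes, the 10 smallest p each way with both groups bright, up to 6 per list, and Sox4, Cebpa, the gate and sex genes. Not all are printed. Genes named that did not pass, beyond these, were picked from the lists after their values were seen. Promoters are from RefSeq, GRCm38.p6, the first listed start of a gene, and 10396 tested genes had one.

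Replicate numbers did not pair arrays of the 2 groups, as given under the closing section. Alternatives were the 6 leukaemic arrays alone, a replicate block, median centring, quantile normalization, no filter and a 60th percentile filter, other choices of probe set, a trend with robust prior, leaving out X and Y or chromosomes 6 and 12, and leaving out each array. Sox4 array 2 alone was added after seeing the data.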

Additional observations from a re-analysis of the deposited data

How the results depend on the processing

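The count of 3702 calls kept within 1.5 times under each alternative chosen with the design: 4797 with the 6 leukaemic arrays only, 4002 with median centring, 3837 with quantile normalization, 3688 with no filter, 3795 with probe sets of a gene averaged, 3221 with the stricter filter, 3706 with the probe set chosen on leukaemic arrays, 3897 with a trend and robust prior and 3602 without chromosomes X and Y. Leaving out each of the 9 arrays gave 2786 to 4754 calls, the most without wild type array 3. With chromosomes 6 and 12 set aside the range was 2261 to 4019, and for 2-fold calls 1135 to 1172. With a replicate block 3503 genes passed, 3360 of them shared with the fit without it. Deviations of same-numbered arrays correlated at -0.024, 0.052 and -0.013, so the numbers give no pairing, and the block ended the calls of Pbx2 and Wdr12 among the named genes. With Sox4 array 2 alone, chosen after seeing the data, calls dropped to 1508, and to 1235 with both chromosomes set aside, and this fit has 2 fewer arrays. Xist then turned from -4.71 to 0.08, that array having no Xist signal.

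The chromosome medians stayed above 0 under every alternative run, and moved with the scaling and the filter. That of chromosome 6 (0.291) was 0.371 with median centring, 0.321 with quantile normalization, 0.148 with no filter, 0.309 with probe sets averaged, 0.388 with the stricter filter, 0.279 with Sox4 array 2 alone and 0.284 to 0.312 with each array left out. That of chromosome 12 (0.3) was 0.381, 0.318, 0.207, 0.296, 0.403 and 0.317 under the same settings, 0.307 with the probe set chosen on leukaemic arrays and 0.3 to 0.316 with each array left out. Without the filter the genes near background enter these medians, and whether they lower it was not tested. Low signal limits the size of a difference where a group lies below the 40th percentile or at the floor. Depth in the sense of counts does not apply to arrays.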

Other observations

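Probe sets with no symbol or with several in the platform annotation entered no gene count above. There were 10092 of them, of which 5112 passed the same filter, and 1241 (24.3 percent) differed between K/L and Sox4 arrays at an adjusted p of 0.05 in limma. Of these, K/L cells had 349 higher and 892 lower, and 455 differed at least 2-fold. The share called was 28.9 percent among named genes, where calls were nearly equal in both directions. These probe sets are unnamed here.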
